A study of Mus musculus with 16 samples.

Results

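The 78 mouse nuclear genes named as numbered proteins of the mitochondrial ribosome, Mrps for the small and Mrpl for the large subunit, were examined in kidney cells exposed to doxycycline. Mrps36 carries such a symbol although its protein belongs to another complex, as given below. Members were taken by symbol, as genes written Mrps or Mrpl with a number and at most 1 further letter, without pseudogenes, that reached 1 CPM (counts scaled to the size of the library) in at least 4 of the 16 libraries. All 78 genes with such a symbol passed, 29 of the small and 49 of the large subunit, out of 13234 genes that passed the same filter and 54393 genes in the count table. The lowest of them, Mrpl23, was between 4.91 and 8.77 CPM over the 16 libraries, so none lay near the limit.

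The cells were mIMCD3, a kidney epithelial line of inner medullary collecting duct origin, made from an SV40 transgenic mouse, with a genotype given as wild type in the labels. They were grown for 10 days on permeable filters in a serum-supplemented renal epithelial medium. Doxycycline at 2 ug/mL, abbreviated DOX, or its vehicle DMSO was given for 3 or 6 days with a daily change of medium. Per the study's methods, the medium of all groups also held growth factors, hormones and the antimicrobials gentamicin and amphotericin B. This gave 4 groups (DMSO 3 days, DOX 3 days, DMSO 6 days and DOX 6 days) of 4 replicate libraries of poly(A)-selected RNA each. The comparisons ask what the drug, against its vehicle in this medium, does to gene expression in cells that carry no transgene for it to induce. Whether the drug acts jointly with a supplement was not tested. The sources used here do not say whether the replicates came from separate cultures, so p-values measure the spread between these libraries, and the line stands for 1 cell source without other cell types.

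Mitochondria keep their own ribosome, which translates the few inner membrane proteins encoded by mitochondrial DNA, all of them parts of the respiratory chain or the ATP synthase. Its RNAs, mt-Rnr1 and mt-Rnr2, are made inside the organelle, whereas all of its proteins are encoded in the nucleus, translated in the cytosol and imported. Some of these proteins descend from bacterial ribosomal proteins and others were added during evolution of the mitochondrion. Doxycycline is a tetracycline, a class of antibiotic that binds the small subunit of bacterial ribosomes and also slows translation by the bacterial-type ribosome of mitochondria.

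Libraries held 16933343 to 23960860 estimated counts, and log2 CPM of replicates correlated at 0.981 to 0.992 across genes. At these depths 3 counts correspond to 0.125 to 0.177 CPM, far below every member. The epithelial markers Cdh1, Epcam, Krt8, Krt18, Cldn4 and Cldn7 were all expressed, with a summed level of 2125 to 2586 TPM in the DMSO and 1570 to 1820 TPM in the DOX libraries. Of 10 markers of the inner medullary collecting duct only Scnn1a, Hsd11b2 and Gata3 passed the filter, and the water channels Aqp2 and Aqp4 were at or near 0. This list summed to 6.93 to 10.2 TPM in the DMSO and 3.12 to 5.08 TPM in the DOX libraries. None of 4 fibroblast markers passed, and of 3 leukocyte markers only Cd68 did, which ran with the groups (the list summed to 17.2 to 24.6 TPM in DMSO and 7.81 to 12.6 TPM in DOX libraries) while Ptprc and Adgre1 were near 0. Of the endothelial markers Pecam1 passed the filter and Cdh5 did not, and both together summed to under 1 TPM in every library. The part of these markers in the results below was not tested. For the member genes, replicate 1 of DOX 3 days stood apart from its group, and the counts, the list medians and the range of the described members at 3 days are given with and without it. In bulk RNA, fewer cells and less RNA per cell cannot be told apart.

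Levels of different genes were compared in TPM, which is scaled for transcript length and sums to about the same total in every library. In the 8 DMSO libraries the median member stood at 68.6 TPM. The most abundant was Mrps21, a small protein of bacterial descent in the small subunit, at 492 ± 15.4 TPM (mean ± SD, n = 8). It was followed by Mrpl30 at 316 ± 13.3, Mrpl33 at 239.7 ± 10.5 and Mrps18c at 206 ± 12.6 TPM. The DMSO ranges of Mrps21 (469 to 517 TPM) and Mrpl30 (291 to 335 TPM) did not overlap, whereas those of Mrpl33 (221 to 249.6 TPM) and Mrps18c (189 to 226 TPM) did. At the low end, Mrps30 was at 15.9 ± 1.57, Mrpl50 at 15.4 ± 1.68, Mrps27 at 14.4 ± 1.17 and Mrpl23 at 10.7 ± 1.41 TPM. Members of 1 ribosome thus differed widely in mRNA level. The value of Mrpl23 is uncertain, since most of the reads it could share were assigned to a processed pseudogene.

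Nuclear genes of mitochondrial proteins often have short, GC-rich promoters, and many face a second gene that is read in the opposite direction. In GENCODE M21 annotation of GRCm38, 33 of the 78 members (42.3%) had the start of another protein-coding gene on the opposite strand within 1000 bases, against 2024 of 11944 tested protein-coding genes (16.9%). RefSeq gave a promoter window of 300 bases, 250 before and 50 after the start, for 69 of the 78 members on GRCm38.p6. Letters were searched on both strands, and a gene with several windows was counted if any of them held the letters. The ETS-type letters CCGGAAG were found in 37.7% of these members, against 9.93% of all genes with a RefSeq window and 20.8% of tested genes with one. The YY1-type letters AAGATGGC were in 17.4%, against 3.19% and 5.36%, and the NRF1-type letters GCATGCGC in 11.6%, against 3.05% and 6.09%. For the SP1-type letters GGGCGG the shares were 49.3%, 38.2% and 69.8%. The cAMP response letters TGACGTCA were in 2.90% of the members (2.03% and 3.67% of the others), and TGATGCAA, the form of the amino acid response element searched, was in 0 of 69 (1.03% and 0.734% of the others).

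Of the 9 members called higher at 3 days by the test described with those results that had a window, 1 held the ETS, 1 the YY1 and 7 the SP1 letters. The 250 bases before the start are printed for 4 of the 17 members whose upstream window holds no annotated exon, 5′ to 3′ on the gene's own strand, with the ETS and SP1 letters on either strand in capitals. Mrps17 is shown as a member called higher at 3 days, Mrps14 and Mrpl42 as the members with the largest difference between the 2 times, and Mrps22 as a member with the ETS letters beside its start. These windows lie at chr5:129715247-129715496 (plus strand) for Mrps17, chr1:160194965-160195214 (plus) for Mrps14, chr10:95501950-95502199 (minus) for Mrpl42 and chr9:98601680-98601929 (minus) for Mrps22.
Mrps17: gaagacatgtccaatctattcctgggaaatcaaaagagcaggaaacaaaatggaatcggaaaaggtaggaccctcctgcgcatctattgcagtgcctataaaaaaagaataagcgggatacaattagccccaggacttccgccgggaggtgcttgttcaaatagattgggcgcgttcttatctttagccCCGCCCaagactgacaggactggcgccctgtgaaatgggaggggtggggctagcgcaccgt
Mrps14: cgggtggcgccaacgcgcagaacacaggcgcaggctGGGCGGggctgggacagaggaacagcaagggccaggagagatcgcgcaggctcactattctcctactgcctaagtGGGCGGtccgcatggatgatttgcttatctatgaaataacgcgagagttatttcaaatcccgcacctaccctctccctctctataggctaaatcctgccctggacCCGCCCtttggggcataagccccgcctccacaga
Mrpl42: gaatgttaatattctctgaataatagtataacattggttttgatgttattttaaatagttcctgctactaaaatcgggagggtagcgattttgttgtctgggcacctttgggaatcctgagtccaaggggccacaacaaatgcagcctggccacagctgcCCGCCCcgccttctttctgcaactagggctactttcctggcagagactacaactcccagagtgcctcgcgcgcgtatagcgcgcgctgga
Mrps22: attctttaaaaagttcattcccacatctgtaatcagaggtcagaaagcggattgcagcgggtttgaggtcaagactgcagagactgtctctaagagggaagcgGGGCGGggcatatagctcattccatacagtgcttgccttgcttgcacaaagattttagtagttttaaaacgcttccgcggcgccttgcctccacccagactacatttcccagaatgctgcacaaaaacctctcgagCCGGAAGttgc

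After 3 days of DOX the mitochondrial ribosomal protein genes were, as a group, slightly higher than in DMSO. The log2 fold change was above 0 for 76 of 78 members, against 50.3% of all tested genes, and its median was 0.31 (1.24-fold) against 0.0031 for all tested genes. The main test asked whether a change exceeded 20% in either direction (edgeR glmTreat, two-sided, Benjamini-Hochberg adjusted p over all 13234 tested genes, limit 0.05), and members that passed it are called higher or lower. It called 12 members higher and 0 lower at 3 days, against 5.3% of tested genes called higher and 7.22% lower. With 0.05 as the limit and no threshold of size (glmQLFTest), 64 members passed as higher and 0 as lower, where 23% of tested genes passed as higher and 22.2% as lower. In 33 members all 4 DOX libraries lay above all 4 DMSO libraries, and in 0 below, against 18.8% and 19.8% of tested genes.

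The 4 DOX libraries did not contribute alike. Relative to the DMSO mean of the same time, the median log2 ratio of the members was 0.09 in replicate 1 of DOX 3 days, 0.37 in replicate 2, 0.34 in replicate 3 and 0.41 in replicate 4. The DMSO libraries, each set against the other DMSO libraries of its time, ran from -0.11 to 0.09, a reference that widens their spread. Replicate 1 thus lay close to the highest DMSO library, while the other 3 lay clearly above all DMSO libraries. Members above the DMSO mean numbered 57 of 78 in replicate 1 and 77, 77 and 78 in replicates 2, 3 and 4. The scaling factor of library size was 1.00 in replicate 1 and 0.950 to 0.955 in the other 3 libraries, and its part in this was not tested. Without replicate 1 the median change was 0.40 for the small and 0.35 for the large subunit. In that fit 29 members were called higher and 0 lower, against 1079 and 1218 of 13206 tested genes. Without a threshold 73 then passed as higher and 0 as lower (25.9% and 25.2% of tested genes), and 74 did not overlap (28.7%, with 3 DOX libraries in place of 4). Members move together between libraries of 1 group, so they are not independent observations of the drug.

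**Figure D1:**
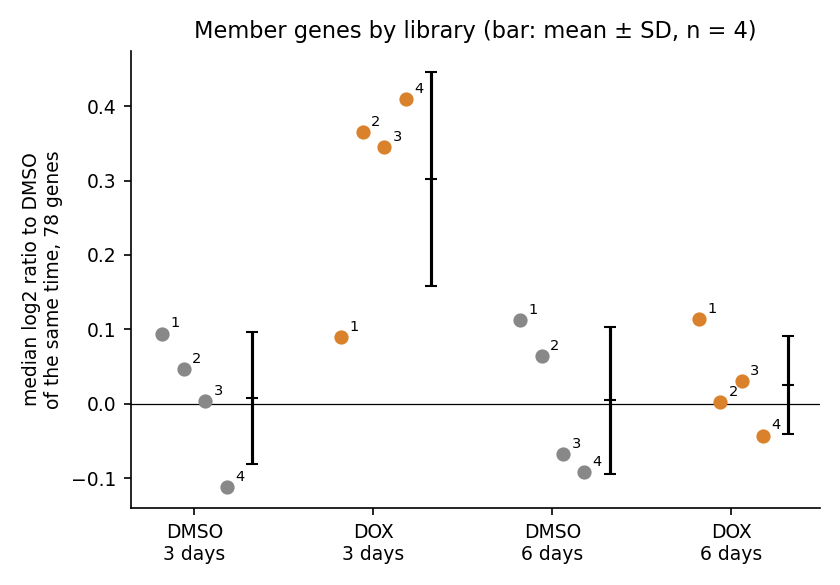
Median log2 ratio of the 78 members to the mean of the DMSO libraries of the same time (vertical axis, log2) in each of the 16 libraries, with the replicate number beside each point and the mean ± SD (n = 4) of each group as a bar. A DMSO library was set against the other DMSO libraries of its time, without itself, which widens the DMSO spread. DOX libraries 2, 3 and 4 of 3 days lie at 0.34 to 0.41, and the DOX libraries of 6 days lie at -0.04 to 0.11, beside DMSO libraries at -0.09 to 0.11.

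The largest rise at 3 days was that of Mrps28 (ENSMUSG00000040269, chr3:8802146-8923918), a relative of bacterial protein S1 in the small subunit. It stood at 30.7, 30.4, 30.2 and 30.4 CPM in the DMSO and at 37.5, 44.5, 46.5 and 47.4 CPM in the DOX libraries of 3 days. The groups did not overlap, with the lowest DOX value in replicate 1. Its log2 fold change was 0.53 (SE 0.09, adjusted p = 0.00667). Mrps17, another small subunit protein of bacterial descent and the member with the smallest adjusted p, stood at 88.7, 88.1, 86.1 and 85.2 CPM in DMSO and 104, 125, 122 and 126 CPM in DOX. Here too every DOX library was above every DMSO library, and the log2 fold change was 0.45 (SE 0.06, adjusted p = 0.00467).

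Mrps30, whose protein sits in the large subunit despite its symbol, was at 41.9, 41.6, 42.8 and 40.2 CPM in DMSO and 56.8, 52.8, 56.9 and 56.1 CPM in DOX, with replicate 1 as high as the other DOX libraries. Its log2 fold change was 0.42 (SE 0.06, adjusted p = 0.0141), although reads of the overlapping opposite-strand gene B430218F22Rik could be counted with it if strand was not used. Mrps28, Mrps17 and Mrps30 were the 3 members still called at 3 days whichever of the 16 libraries was left out. Mrps26, an addition of mitochondria to the small subunit, was at 39.9, 41.2, 39 and 38.2 CPM in DMSO and 46.2, 58.2, 55.8 and 57.3 CPM in DOX. The libraries did not overlap, and the log2 fold change was 0.46 (SE 0.08, adjusted p = 0.0242).

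Of the large subunit, Mrpl2, a protein of bacterial descent near the site of peptide bond formation, was at 55.5, 59.3, 59.5 and 52.2 CPM in DMSO and 70.7, 82.9, 76.5 and 84.5 CPM in DOX at 3 days, a log2 fold change of 0.47 (SE 0.08, adjusted p = 0.0166). Mrpl55, a large subunit protein of bacterial descent, was at 26.5, 23.1, 24 and 23.8 CPM and 27.6, 35.8, 34.7 and 36.2 CPM, a log2 fold change of 0.47 (SE 0.08, adjusted p = 0.0220). Mrpl32, which the inner membrane m-AAA protease processes before it joins the ribosome, was at 34, 29.6, 29.8 and 24.7 CPM and 34.5, 42.1, 43.9 and 42.3 CPM, a log2 fold change of 0.47 (SE 0.10, adjusted p = 0.0444). In these 3 genes the libraries of DOX lay above those of DMSO without overlap, but in Mrpl55 and Mrpl32 replicate 1 of DOX exceeded the highest DMSO library by little. Mrpl1, the counterpart of bacterial protein L1, was at 60.1, 57.4, 54.4 and 52.4 CPM in DMSO and 64.8, 82.6, 79.7 and 80.9 CPM in DOX, a log2 fold change of 0.46 (SE 0.09, adjusted p = 0.0384). The other members called were Mrpl44, Mrps34, Mrpl15 and Mrps9, with log2 fold changes of 0.45, 0.44, 0.43 and 0.41. Of its 2064 annotated exon bases Mrps34 shares 763 with Nme3 on the same strand and 1309 with Mapk8ip3 on the opposite strand, so its counts are uncertain. Mrpl44 shares 126 of 1644 with Wdfy1 on the opposite strand, which matters if strand was not used. Without replicate 1 of DOX the 8 members described with their values had log2 fold changes from 0.41 (Mrps30) to 0.60 (Mrps28), all called.

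The number of calls at 3 days moved with single libraries, and the median member lay near the 20% threshold. It was 7, 6 and 3 without replicate 2, 3 or 4 of DMSO and 4, 4 and 3 without replicate 2, 3 or 4 of DOX, 7 with the replicate number as a block, and 2 (Mrps17 and Mrps28) with DESeq2. On the log2(TPM + 1) scale the median of all tested genes moved to -0.15 and that of the members to 0.12, which is 0.27 above it, and limma called 0 members.

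After 6 days the members had no common direction. Log2 fold changes of DOX against DMSO were above 0 for 45 members (49.9% of all tested genes) and below for 33, with a median of 0.03 against -0.00064 for all tested genes. Called higher were 2 members, Mrps31 and Mrpl4, and called lower 3, Mrps21, Mrpl18 and Mrpl49, where 10% of tested genes were called higher and 11.6% lower. Without a threshold of size 17 members passed as higher and 12 as lower, against 25.7% and 25% of tested genes. Libraries did not overlap for 16 members higher and 8 lower in DOX, against 22.1% and 20.9%. The shares of members past either test were thus below those of all genes. By library the median log2 ratio of the members was 0.11, 0.0018, 0.03 and -0.04 in DOX replicates 1 to 4. The DMSO libraries, each set against the other DMSO libraries of that time, ran from -0.09 to 0.11.

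**Figure D2:**
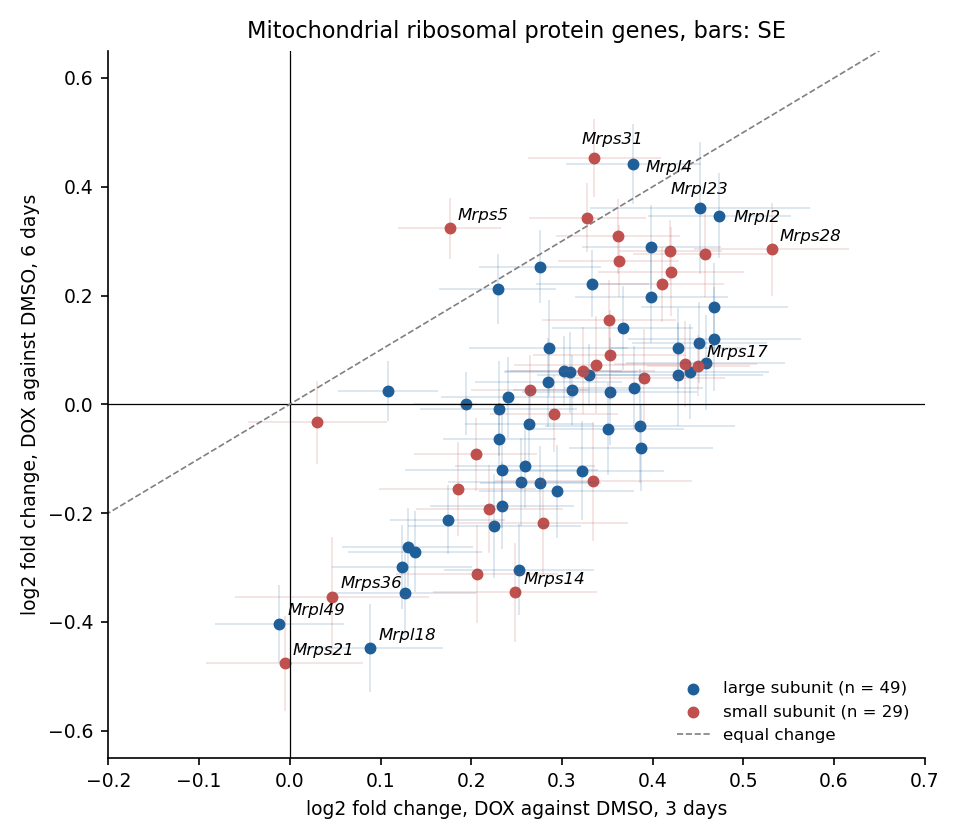
Log2 fold change of DOX against DMSO at 3 days (horizontal axis) and 6 days (vertical axis) for the 78 members, small subunit red and large subunit blue, with the SE as bars and equal change as a dashed line. 74 of 78 members lie below the dashed line, and 76 lie right of 0 at 3 days.

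Mrps31, a mitochondrial addition to the small subunit, was at 23.2, 23.8, 23.2 and 23.2 CPM in DMSO and 36, 32.6, 31.6 and 27.5 CPM in DOX at 6 days. All DOX libraries were above all DMSO libraries, and the log2 fold change was 0.45 (SE 0.07, adjusted p = 0.0106). Mrpl4, a protein of bacterial descent that lines the exit tunnel of the nascent chain, was at 20.1, 17.4, 15.9 and 16.8 CPM in DMSO and 23.7, 22.1, 25.5 and 24.1 CPM in DOX, a log2 fold change of 0.44 (SE 0.07, adjusted p = 0.0165). Both genes were also higher in DOX at 3 days without overlap, with 0.34 for Mrps31 and 0.38 for Mrpl4, which did not pass the 20% test there (adjusted p = 0.257 and 0.121).

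Mrps21, the most abundant member, was at 114, 104, 93.1 and 94.3 CPM in DMSO and 79.2, 67.9, 72.2 and 71.8 CPM in DOX at 6 days. The groups did not overlap, and the log2 fold change was -0.48 (SE 0.09, adjusted p = 0.0162), a fold of 0.719. At 3 days it was at 120.3, 111, 109 and 95.8 CPM in DMSO and 88.1, 115, 117 and 114 CPM in DOX, where DOX replicate 1 was below and the others within the DMSO range. Mrpl18, at the central protuberance of the large subunit, was at 76.1, 71.8, 71.3 and 67 CPM in DMSO and 59.2, 51.4, 51.9 and 47.4 CPM in DOX at 6 days, a log2 fold change of -0.45 (SE 0.08, adjusted p = 0.0222). Mrpl49, a mitochondrial addition to the large subunit, was at 100.2, 113, 104 and 101 CPM and 78.3, 83.8, 77.5 and 76.6 CPM, a log2 fold change of -0.40 (SE 0.07, adjusted p = 0.0405). For both, every DOX library was below every DMSO library. Mrpl18 overlaps exons of Tcp1, and Mrpl49 those of Syvn1, on the opposite strand, so their counts are uncertain if strand was not used.

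None of the 5 calls at 6 days held in all of the fits that left out a library. Mrps31 was called in 15 of 16 such fits, Mrps21, Mrpl18 and Mrpl4 in 14 and Mrpl49 in 11. The number called was 3 without replicate 3 of DMSO or replicate 3 or 4 of DOX, and without replicate 1 of DMSO it was 4 higher and 1 lower. DESeq2 called 0 members, and limma on log2(TPM + 1) called the same 3 lower and 0 higher.

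**Figure D3:**
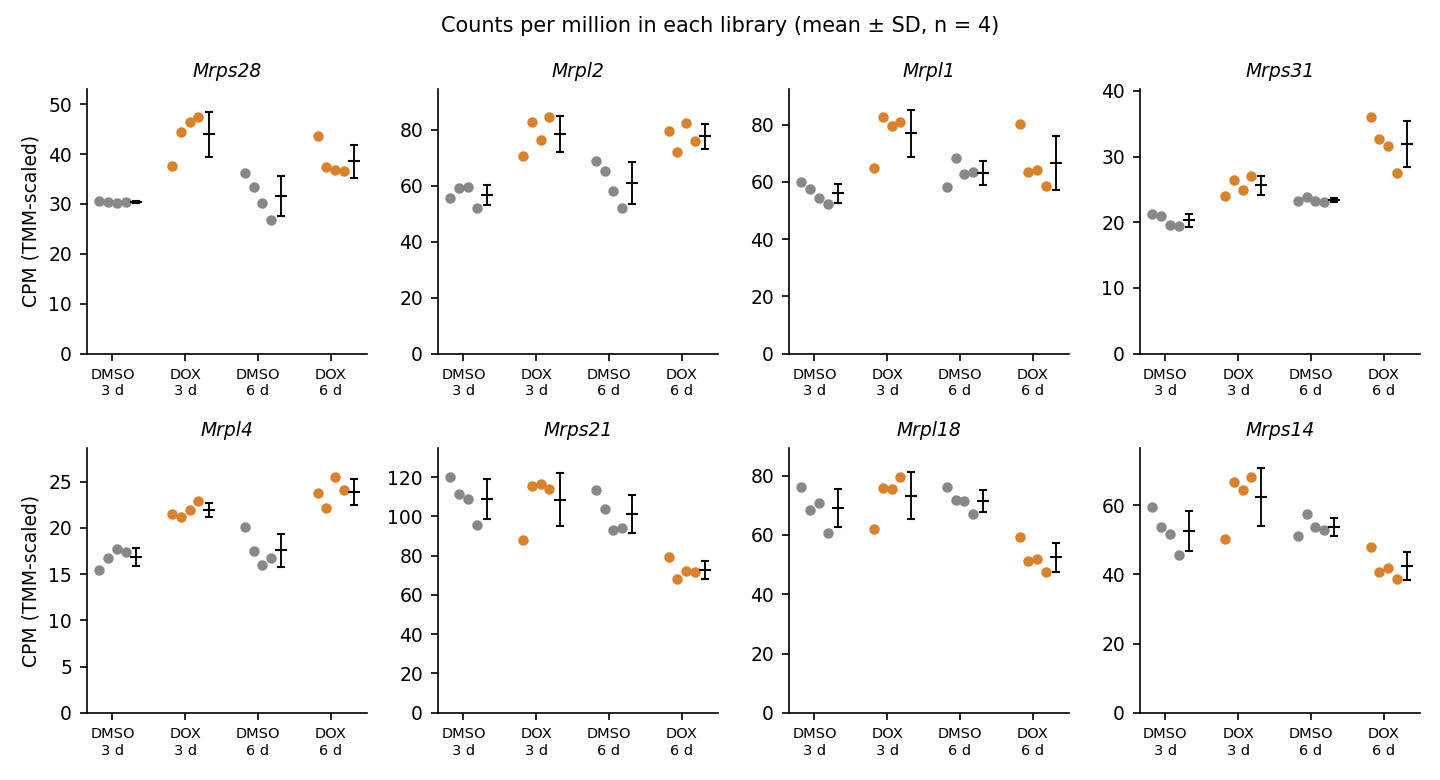
CPM after scaling of library sizes (vertical axes from 0) in the 4 libraries of each group for 8 members, with the mean ± SD (n = 4) as a bar, DMSO grey and DOX orange. Mrps28, Mrpl2 and Mrpl1 are higher in every DOX library at 3 days, Mrps31 and Mrpl4 are higher at both times, and Mrps21, Mrpl18 and Mrps14 are lower in every DOX library at 6 days.

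The change with time was tested as the difference between the DOX effects, each against the DMSO libraries of its own time (edgeR glmQLFTest, adjusted p, no threshold of size). The effect was lower at 6 than at 3 days for 74 of 78 members, against 49% of tested genes. The median difference was -0.30 on the log2 scale, against 0.0061 for all tested genes. The difference passed for 36 members, all of them lower at 6 days and none higher, against 9.58% of tested genes lower, 7.44% higher and 17% in either direction. They comprised 10 of the 29 small and 26 of the 49 large subunit genes. No member passed when a 20% threshold was put on the difference.

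The largest difference was that of Mrps14, a protein of bacterial descent in the head of the small subunit. It was at 59.5, 53.7, 51.7 and 45.6 CPM in DMSO and 50.2, 66.8, 64.4 and 68.3 CPM in DOX at 3 days, and at 51.2, 57.3, 53.8 and 52.7 CPM and 48, 40.7, 42 and 38.8 CPM at 6 days. DOX thus lay above DMSO in 3 of 4 libraries at the first and below it in all 4 at the second time. The DOX effect was 0.25 (SE 0.09, adjusted p = 0.0305 without the threshold) at 3 days and -0.35 (SE 0.09, adjusted p = 0.00348 without the threshold) at 6 days, and the difference was -0.59 (SE 0.13, adjusted p = 0.00489).

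Mrpl42, a mitochondrial addition to the large subunit, was at 75.5, 72.9, 69.4 and 66.1 CPM and 70.0, 85.4, 89.9 and 93 CPM in DMSO and DOX at 3 days, and at 73.8, 73.4, 69.6 and 68.2 CPM and 68.5, 53.9, 54.5 and 54.3 CPM at 6 days. In both DOX groups replicate 1 lay apart from the other 3 and inside the DMSO range. The difference was -0.56 (SE 0.12, adjusted p = 0.00414). Mrpl18 followed with -0.54 (SE 0.11, adjusted p = 0.00442) and Mrps18c with -0.52 (SE 0.13, adjusted p = 0.00945). Of all members, 17 passed the test of the difference in every fit that left out a library, among them these 4, Mrps17 and Mrps21. The count itself ran from 19 to 59, where the fit that gave 59 passed 14.8% of tested genes as lower and 13.9% as higher. It was 19 without replicate 4 of DMSO 3 days, replicate 2 of DMSO 6 days or replicate 2 of DOX 3 days, 20 without replicate 4 of DOX 3 days or of DOX 6 days, 22 and 23 without replicate 3 of DOX 3 days and DOX 6 days, and 59 without replicate 1 of DOX 3 days.

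The 78 members fell into few patterns over the 2 times when both were judged without a threshold of size. The most frequent, with 44 members, was higher at 3 days and not past the test at 6 days, which held for 8.92% of tested genes. Higher at both times were 17 (13.4% of tested genes), and lower at 6 days only were 9 (9.29%). The 3 members that passed as higher at 3 and lower at 6 days were Mrps14, Mrpl42 and Mrpl45 (0.718%), and 5 passed at neither time (33.5%). Without overlap of libraries 15 were higher at both times (11.3% of tested genes), of which Mrps31, Mrpl4, Mrpl2 and Mrps2 had the largest changes at 6 days. Mrps2, a small subunit protein of bacterial descent, was at 37.7, 42.2, 40.1 and 39.1 CPM in DMSO and 55, 49.5, 51.1 and 46.4 CPM in DOX at 6 days, a log2 fold change of 0.34 (SE 0.06, adjusted p = 0.000133 without the threshold), close to the 0.33 at 3 days.

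Between the DMSO groups of 6 and 3 days no member passed by edgeR with or without a threshold of size. Of tested genes 0% passed with it and 0.468% without it (0.325% higher and 0.144% lower). By edgeR 0 members had an unadjusted p under 0.05 with and 10 without the threshold. DESeq2, run here only with the threshold, passed no gene. The median log2 difference was 0.06, with 63 of 78 members above 0 against 50.3% of tested genes. In 9 members the DMSO libraries of 6 days lay above those of 3 days without overlap, and in 0 below, against 6.85% and 5.39% of tested genes.

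The subunits were alike in direction. At 3 days the median log2 fold change was 0.33 for the 29 small and 0.29 for the 49 large subunit genes, with 6 called higher in each and 24 and 40 past the test without a threshold. At 6 days the medians were 0.07 and 0.02, and the small subunit held 1 call in each direction and the large subunit 1 higher and 2 lower. No difference between the subunits was tested, since the genes of a subunit are not replicates. The 48 members of bacterial descent and the 30 classed as mitochondrial additions also had like medians, 0.33 and 0.28 at 3 days and 0.04 and 0.0024 at 6 days. Called higher at 3 days were 8 and 4. The 30 include Mrps36, whose protein is not part of the ribosome.

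Summed over members, TPM at 3 days was 6264 to 6526 in the DMSO and 6425 to 7055 in the DOX libraries, which overlapped only through DOX replicate 1. At 6 days the sum was 6676 to 6925 in DMSO and 6123 to 6437 in DOX, so every DOX library was lower, while the median member was near no change on the CPM scale. On the log2(TPM + 1) scale the median change of all tested genes was -0.055 at 6 days, and its part in the lower sum was not tested. The small subunit supplied 35.3% to 35.8% of the sum in DMSO and 34.7% to 35.2% in DOX at 3 days, and 35.6% to 36.1% and 34.7% to 35.1% at 6 days, again without overlap. Leaving out Mrps21 and Mrpl30, the most abundant member of each subunit, turned the order round, with 31.3% to 32.3% in DMSO and 32.1% to 32.5% in DOX at 3 days, which overlapped, and 32.1% to 32.8% and 32.8% to 33.4% at 6 days. The direction of the difference in share thus depended on these 2 genes. With all genes but Mrps36, and with Mrps18a and Mrps30 counted in the large subunit, the shares at 3 days overlapped. They were 32.9% to 33.5% in DMSO and 32.4% to 33.0% in DOX. At 6 days they were 33.2% to 33.8% and 32.3% to 32.7%, without overlap.

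Some members have a role or place of their own. Mrpl10 and Mrpl12 form the stalk that recruits translation factors, and Mrpl11 lies at its base. Mrpl12 was at 79.3, 85, 77 and 75.7 CPM in DMSO and 88.4, 107, 106 and 116 CPM in DOX at 3 days and at 87.9, 78.7, 73.9 and 69.7 and 98.7, 88.5, 98.2 and 93.7 CPM at 6 days. DOX was higher without overlap at both times, with 0.40 (SE 0.08, adjusted p = 0.000282 without the threshold) and 0.29 (SE 0.08, adjusted p = 0.00351 without the threshold), but did not pass the 20% test. Mrpl10 had 0.11 (SE 0.05, adjusted p = 0.113 without the threshold) and 0.02 (SE 0.05, adjusted p = 0.740 without the threshold), with overlapping libraries. Mrpl11 had 0.13 (SE 0.08, adjusted p = 0.195 without the threshold) at 3 days and -0.35 (SE 0.08, adjusted p = 0.000972 without the threshold) at 6 days, where its DOX libraries at 51.5, 44.1, 46.4 and 46.5 CPM lay below the DMSO libraries at 65, 61.9, 54.9 and 57.8 CPM. The 3 stalk genes thus did not share a pattern.

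Mrps18a, Mrps18b and Mrps18c are paralogs of bacterial S18, of which Mrps18a sits in the large subunit and the others in the small. At 3 days Mrps18a was at 61.1, 56.2, 52.5 and 50.9 CPM in DMSO and 58.1, 71.7, 72.1 and 74 CPM in DOX, 0.32 (SE 0.08, adjusted p = 0.00253 without the threshold). Mrps18b was at 62.6, 56.5, 54.1 and 52.2 CPM and 58.3, 67.8, 63 and 70.4 CPM, 0.21 (SE 0.07, adjusted p = 0.0177 without the threshold), and Mrps18c at 74.6, 72.3, 72.6 and 62 CPM and 63.8, 87.3, 85.2 and 88.1 CPM, 0.21 (SE 0.09, adjusted p = 0.0640 without the threshold). In all 3 paralogs DOX replicate 1 was inside the DMSO range and the other DOX libraries were above it. At 6 days the log2 fold changes were 0.06, -0.09 and -0.31, and only that of Mrps18c passed the test without a threshold (adjusted p = 0.00632). Its DOX libraries at 62.6, 54.3, 59.1 and 51.3 CPM lay below the DMSO libraries at 67.2, 75.8, 67.2 and 71.8 CPM. Mrps18c shares 250 of its 1076 annotated exon bases with Gm43511 on the same strand, so its counts are uncertain at both times.

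Mrps12 lies at the decoding centre of the small subunit. It was at 13.6, 17.5, 18 and 19.6 CPM in DMSO and 17, 23.4, 21.8 and 25 CPM in DOX at 3 days, with DOX replicate 1 inside the DMSO range, and its log2 fold change was 0.33 (SE 0.11, adjusted p = 0.0163 without the threshold). At 6 days it was -0.14 with overlapping libraries, and the difference between the times was -0.48 (SE 0.15, adjusted p = 0.0378). Mrps36, a component of the 2-oxoglutarate dehydrogenase complex rather than of the ribosome, was at 22.4, 25.6, 24.2 and 23.3 CPM in DMSO and 23.1, 19.5, 16.3 and 15.9 CPM in DOX at 6 days, a log2 fold change of -0.35 (SE 0.11, adjusted p = 0.0103 without the threshold), with replicate 1 inside the DMSO range. At 3 days its change was 0.05. With Mrps18a and Mrps30 counted in the large subunit and Mrps36 left out, 5 of 26 small and 7 of 51 large subunit genes were called at 3 days.

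The sizes of the changes at 6 days ran with the annotated length and the level of the transcript. Length here is the median over the annotated transcripts of a gene, which can differ from that of the expressed ones. In replicate 1 of DMSO 3 days Mrps21 had 517 TPM at 120 CPM and Mrpl18 79.8 TPM at 76.3 CPM. The lengths behind these TPM thus differed, although the annotated medians of the 2 genes are close. Members have short transcripts, with a median length of 848 bases in GENCODE M21 against 1406 for all tested genes. Over the 78 members the 6-day log2 fold change correlated with log2 length at Pearson r = 0.39 (Spearman rho = 0.42) and with log2 TPM in DMSO at r = -0.41 (rho = -0.39). The correlation with length was 0.64 (rho = 0.64) over the 29 small and 0.17 (rho = 0.25) over the 49 large subunit genes. In the 26 shortest members, of 418 to 707 bases, the median 6-day change was -0.10 with 2 past the test as higher and 6 as lower. In the 26 longest, of 995 to 3561 bases, it was 0.10 with 9 higher and 3 lower. Genes are not independent replicates and all points share the same 8 libraries, so these are descriptions. Across all tested genes r with length was -0.01 at 6 days, and -0.20 at 3 days where it was 0.27 over the members. With an offset for length and GC content the numbers called were unchanged at 12 and 5, and the median at 3 days was 0.26.

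**Figure D4:**
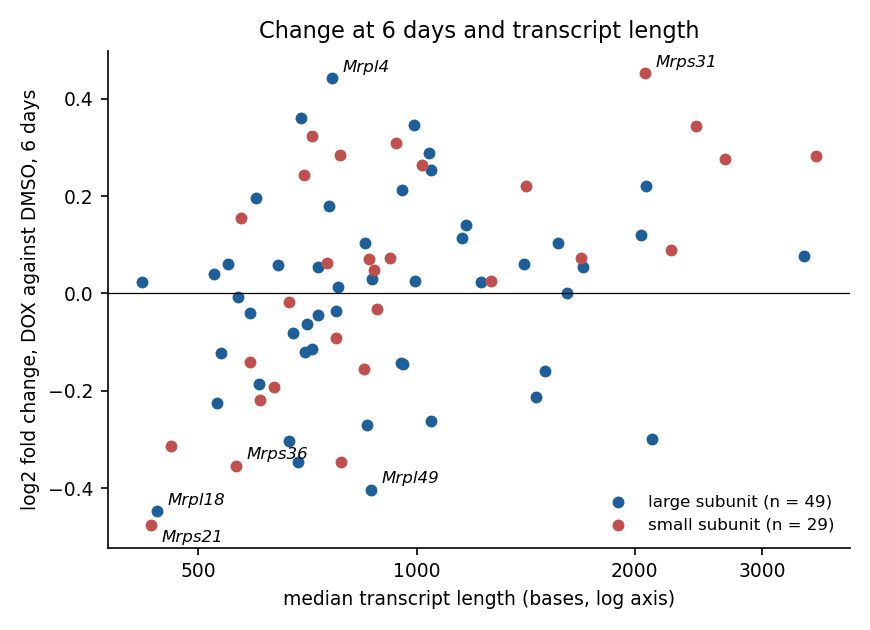
Log2 fold change of DOX against DMSO at 6 days (vertical axis) against the median length of the annotated transcripts of each gene (horizontal log axis, bases) for the 78 members, small subunit red and large subunit blue. Mrps21 and Mrpl18, among the shortest by this annotated length at 430 and 438 bases, are lowest, and Mrps31, at 2070 bases, is highest. The expressed transcripts can differ in length from the annotated median, as the values of Mrpl18 in the text show.

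Shared sequence limits the values of a few members. A blastn search of member transcripts against annotated pseudogenes found 49 copies of 25 members with at least 90% identity over at least 200 bases. Mrpl23-ps1, a processed pseudogene on the minus strand at chr2:74591330-74591909, was identical to Mrpl23 over 540 bases and was listed at 160.5 TPM in DMSO, which is 93.8% of the sum of both. For Mrpl23 alone the log2 fold change was 0.45 (SE 0.12, adjusted p = 0.00468 without the threshold) at 3 days and 0.36 (SE 0.12, adjusted p = 0.0169 without the threshold) at 6 days. With the counts of Mrpl23-ps1 added, the log2 ratio of mean CPM was 0.34 and 0.15. Copies also held 19.8% of the sum for Mrps10 and 9.02% for Mrpl48, and at most 2.38% for the other members with a copy.

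The other genes of mitochondrial translation were described as lists chosen by function. Of 5 mitochondrial ribosomal proteins with other symbols, all 5 passed as higher at 3 days without a threshold, and Aurkaip1 was called with a log2 fold change of 0.43 (SE 0.07, adjusted p = 0.0267). Their median was 0.29 at 3 days and 0.07 at 6 days, and the difference between the times passed for Aurkaip1 (-0.36) and Chchd1 (-0.48). Dap3, a GTP-binding protein of the small subunit, had 0.24 at 3 days and 0.12 at 6 days. Without replicate 1 of DOX 3 days the median at 3 days was 0.37, 2 of the 5 were called and 3 differed between the times. In that fit 1079 of 13206 tested genes were called higher at 3 days. The difference passed for 14.8% of tested genes as lower and 13.9% as higher at 6 days.

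Of 27 factors that assemble the mitochondrial ribosome or modify its RNA, 4 were called higher and 0 lower at each time, with medians of 0.27 at 3 days and 0.15 at 6 days. This is 14.8% of the list at each time, against 5.3% of tested genes called higher at 3 days and 10% at 6 days. At 3 days these were the rRNA methyltransferases Tfb1m (0.64) and Mettl15 (0.55), the GTPase Mtg1 (0.52) and the helicase Ddx28 (0.48). At 6 days they were Ddx28 (0.58), the rRNA methyltransferase Mrm1 (0.55), the helicase Dhx30 (0.43) and the GTPase Noa1 (0.43). The difference between the times passed for Dhx30 alone, higher at 6 days by 0.35 (SE 0.08, adjusted p = 0.00741). None of the 27 was lower at 6 than at 3 days by this test (9.58% of tested genes were). Without replicate 1 of DOX 3 days 4 of the 27 were lower and 1 higher at 6 days, 6 were called at 3 days and the 3-day median was 0.34. Of tested genes 14.8% were then lower and 13.9% higher at 6 days, and 1079 of 13206 were called higher at 3 days.

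Of 15 translation factors, 4 were called higher at 3 days and 2 at 6 days, and 0 lower, with medians of 0.25 and 0.18. The shares called were 26.7% and 13.3%, the latter near the 10% of all tested genes. They were Guf1, a relative of the bacterial factor LepA, at both times (0.55 and 0.48), the release factor Mtrf1 (0.69), the elongation factor Tsfm (0.51) and the recycling factor Mrrf (0.51) at 3 days, and the mRNA-binding protein Lrpprc (0.48) at 6 days. The difference between the times passed for 1 of the 15, Slirp, the RNA-binding partner of Lrpprc, which was lower at 6 days by a log2 difference of -0.49 (SE 0.13, adjusted p = 0.0161). Without replicate 1 of DOX 3 days 5 of the 15 were lower at 6 days, 6 were called at 3 days and the 3-day median was 0.28. Of tested genes 14.8% were then lower at 6 days, and 1079 of 13206 were called higher at 3 days. The elongation factor Tufm was not called, with -0.01 and 0.02. The RNA of the mitochondrial ribosome itself, as captured by poly(A) selection, was higher at both times, mt-Rnr1 by 0.78 (SE 0.09, adjusted p = 5.04e-05) and 0.98 (SE 0.09, adjusted p = 5.23e-07) and mt-Rnr2 by 1.23 (SE 0.10, adjusted p = 6.18e-08) and 1.02 (SE 0.10, adjusted p = 4.81e-07), and the difference between the times passed for neither. The median of the 2 rRNA genes was 2.00-fold at 6 days, while the median of its protein genes was 1.02-fold.

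The cytosolic ribosomal proteins served as the comparison for ribosomal genes in general, 77 of 83 passing the filter. At 3 days 6 were called higher and 0 lower and 67 passed as higher without a threshold, with a median of 0.36. The share called was 7.79%, against 5.3% of tested genes. At 6 days 3 were called higher and 0 lower, 33 passed as higher and 1 as lower, and the median was 0.24. The share of the 77 called at 6 days lay below the 10% of tested genes called higher. Without a threshold of size 23% of tested genes passed as higher at 3 days and 25.7% at 6 days. All DOX libraries lay above all DMSO libraries for 10 of the 77 at 3 days (18.8% of tested genes) and for 40 at 6 days (22.1%). The difference between the times passed for 0 of the 77 by edgeR, with 3 at an unadjusted p under 0.05. It was below 0, so lower at 6 days, for 73 of the 77, with a median of -0.12. The members had 74 of 78 below 0 and a median of -0.30, so the direction was shared and the size was not. Without replicate 1 of DOX 3 days 37 of the 77 were called higher at 3 days, against 1079 of 13206 tested genes. Their median was 0.45, and the difference passed for 5, all lower at 6 days. Without a threshold 75 passed as higher at 3 days, against 25.9% of tested genes. The remaining DOX libraries of 3 days lay above all DMSO libraries for 72 of the 77, against 28.7% of tested genes. For the mitochondrial members the difference then passed for 59 of 78, all lower at 6 days. Of tested genes 14.8% passed as lower and 13.9% as higher in that fit. Between the DMSO groups of 6 and 3 days the median log2 difference of the cytosolic genes was -0.21, with 77 of 77 below 0 and 0 passing with or without a threshold by edgeR (35 at an unadjusted p under 0.05 without it), where the mitochondrial members had 0.06. All list medians rest on the same 16 libraries as those of the members, so they share the deviations of single libraries, including replicate 1 of DOX 3 days.

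**Figure D5:**
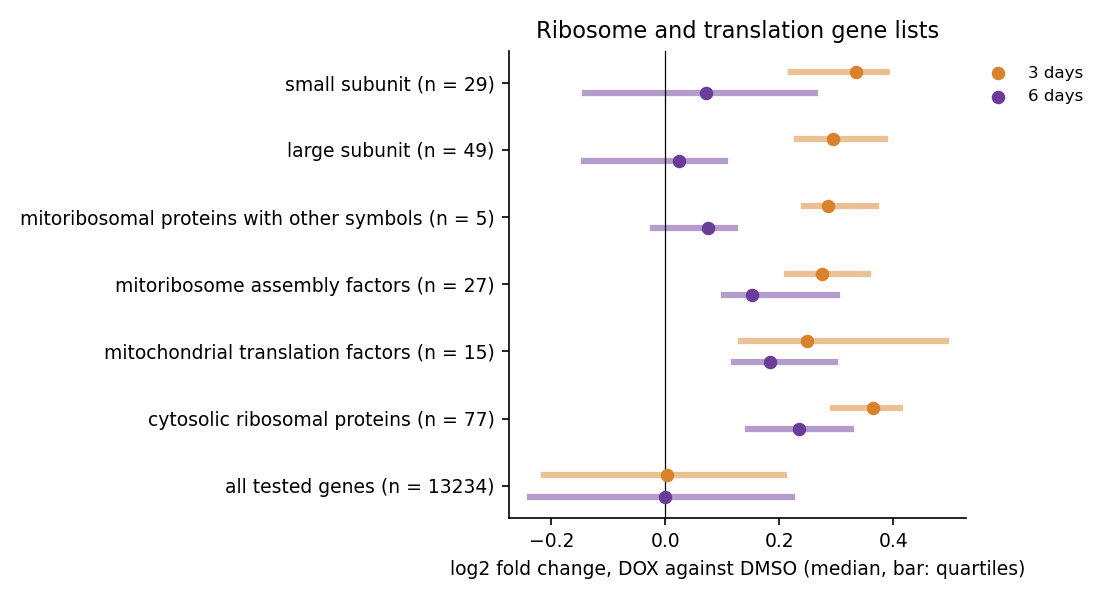
Median (point) and quartiles (bar) of the log2 fold change of DOX against DMSO over the genes of each list at 3 days (orange) and 6 days (purple), with the number of tested genes. Medians of both subunits drop from 0.33 and 0.29 at 3 days to 0.07 and 0.02 at 6 days. That of the cytosolic ribosomal proteins drops from 0.36 to 0.24, and all tested genes stand near 0.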

How the data were processed

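RNA of 16 libraries in 4 groups of 4 was sequenced as paired reads of 75 bases from a directional poly(A) kit. Per the study's methods and processing notes, the authors aligned with STAR 2.6.0c and quantified with Salmon on GENCODE M21 (GRCm38). Whether Salmon used strand is not given in the sources used here. The authors deposited estimated counts per gene, which were rounded here to whole numbers, and TPM, which they had scaled for transcript length and total.

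In R 4.3.3 with edgeR 4.0.16, genes that reached 1 CPM in 4 or more of the 16 libraries were fitted with TMM scaling, a robust quasi-likelihood model and 4 group means. DOX against DMSO at each time was tested with glmTreat at 1.2-fold, and the difference between times with glmQLFTest, all two-sided with Benjamini-Hochberg adjustment at 0.05 over 13234 genes. Every adjusted p in the text is from edgeR unless DESeq2 or limma is named. SEs are the log2 fold change divided by the square root of F. Alternatives were DESeq2 1.42.0, limma 3.58.1 on log2(TPM + 1) and log2(TPM + 0.1), other filters and scaling, a replicate block, a length and GC offset, and leaving out each library. The counts without a threshold, the counts of members not overlapping and the gene lists without replicate 1 of DOX 3 days, and Mrpl23 with its pseudogene, were added after seeing the data. Pseudogene copies were searched with blastn 2.17.0. Fits were tested on simulated data with 200 changed genes.

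Members and gene lists were chosen with earlier results of these data known. Named with values were, at each time, up to 6 called members with the largest rise and fall, the 4 largest changes among members not overlapping at both times, the 4 highest and lowest by TPM, the 4 largest differences between times, and 9 genes of known structure. Mrps17, Mrps22, Mrpl44, Mrps34, Mrpl15, Mrps9 and Mrpl45, and the head-to-head partners, were named after their values were seen. Depth of 16933343 to 23960860 counts limits low genes, and floors of 3 counts cover counting error only.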

Additional observations from a re-analysis of the deposited data

Results flagged for a closer look

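In 15 of the 112 groups of 4 CPM values of the 28 named members, and in 0 of 16 groups of summed TPM or subunit share, 1 library lay far from the others (by Dixon's ratio of the gap to the range, at the 95% level for 4 values), where chance gives about 1 in 20. In DOX 3 days replicate 1 was the lowest for Mrpl1 (64.8 CPM), Mrpl10 (73.9), Mrpl33 (65.9), Mrps18a (58.1), Mrps18c (63.8) and Mrps21 (88.1). In DOX 6 days replicate 1 was the highest for Mrpl32 (37.1 CPM), Mrpl33 (65.9), Mrpl42 (68.5), Mrpl55 (32.5) and Mrps28 (43.5). The other libraries that stood apart were replicate 4 of DOX 3 days for Mrps27 (23.3 CPM), replicate 2 of DMSO 6 days for Mrpl30 (152) and Mrps31 (23.8), and replicate 4 of DMSO 3 days for Mrps36 (23.1).

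The DOX effect differed between 6 and 3 days for 36 members by edgeR's test of the difference, all lower at 6 days. Of the named members these were Mrps14 (-0.59 on the log2 scale), Mrpl42 (-0.56), Mrpl18 (-0.54), Mrps18c (-0.52), Mrps12 (-0.48), Mrpl11 (-0.47), Mrps21 (-0.47), Mrpl50 (-0.42), Mrpl49 (-0.39), Mrpl1 (-0.38), Mrpl33 (-0.30) and Mrps18b (-0.30).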

How the results depend on the processing

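The direction of the members as a group at 3 days held in every alternative run for the subunit medians, while counts of calls moved. Of 78 members, the number called at 3 days (12) was 2 with DESeq2, 0 with limma on log2(TPM + 1) and on log2(TPM + 0.1), 64 without a fold threshold, and 3 to 29 when leaving out 1 library. At 6 days (5) it was 0 with DESeq2, 3 with limma at either pseudocount, 29 without a threshold, and 3 to 5 when leaving out 1 library. The difference between times (36) gave 10 with limma at either pseudocount, 0 with a 1.2-fold threshold, and 19 to 59 when leaving out 1 library. Members higher without overlap at 3 days (33) numbered 74 without replicate 1 of DOX 3 days. With the replicate number as a block, 7 were called at 3 days. The numbers share no stated origin and the deviations of same-numbered libraries correlated at -0.43 to 0.18, so they do not pair the libraries. The small subunit share of 35.3% over all libraries was 33.0% by position in the ribosome and 32.4% without the most abundant member of each subunit.

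The following members changed sign. On log2(TPM + 1) the 3-day values were Mrpl10 -0.079, Mrpl11 -0.022, Mrpl18 -0.082, Mrpl50 -0.062, Mrps18c -0.016, Mrps27 -0.15 and Mrps36 -0.14, and the 6-day values Mrpl10 -0.036 and Mrpl32 -0.0045. With the length and GC offset Mrps27 was -0.0396 at 3 and 0.0049 at 6 days, Mrps36 -0.0366 at 3 days and Mrpl33 0.015 at 6 days. Leaving out 1 library gave at 3 days Mrpl49 -0.061 to 0.073, Mrps21 -0.064 to 0.082, Mrps27 -0.028 to 0.053 and Mrps36 -0.0046 to 0.14, and at 6 days Mrpl1 -0.023 to 0.13, Mrpl10 -0.0011 to 0.054 and Mrps27 -0.072 to 0.035. The cause was not tested.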

Other observations

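Of the genes that face a member head to head within 1000 bases, 31 were tested and 29 of these were no member themselves. These 29 had a median log2 fold change of 0.04 at 3 days and 0.11 at 6 days. At 3 days 1 partner was called higher, Mitd1 beside Mrpl30 (0.53, edgeR adjusted p = 0.00219), and 1 lower, Ncapd2 beside Mrpl51 (-0.50, adjusted p = 0.00323), a condensin subunit. At 6 days Pnpla7 beside Mrpl41 (0.73), Ighmbp2 beside Mrpl21 (0.53) and Twnk, the mitochondrial DNA helicase, beside Mrpl43 (0.49) were called higher. Ncapd2 (-0.79), Eme1 beside Mrpl27 (-0.53) and Ska3 beside Mrpl57 (-0.45) were called lower. The members beside them were not called at that time, with 6-day values from -0.27 for Mrpl51 to 0.06 for Mrpl27. Of all tested genes 5.3% were called higher and 7.22% lower at 3 days, and 10% and 11.6% at 6 days. The shares of the 29 partners called lay below these at 3 days and near these at 6 days. Some pairs overlap in annotation, such as Mrpl43 and Twnk, so their reads are uncertain if strand was not used. Whether partners differ from their members was not tested.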
